A study of Mus musculus with 38 samples.

Results

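The nuclear genes of the mitochondrial respiratory chain were followed in dentate gyrus granule cells that did or did not express a reporter of neuronal activity. A gene was counted as a member where its symbol begins with Nduf, Uqcr, Atp5 or Cox followed by a digit from 4 to 8, or is Sdha, Sdhb, Sdhc or Sdhd. This rule reads symbols only, and it found 92 of the 23420 genes counted. By their known roles 7 are core subunits of complex I, 29 accessory subunits and 7 assembly factors of that complex. Complex II has 4 members, complex III 8 and complex IV 20, including *Ndufa4* and *Ndufa4l2*, which carry a complex I name. The ATP synthase, complex V, has 5 members in its catalytic F1 part and 10 in its membrane part and stalk, and *Atp5s* and *Atp5sl* were kept apart.

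All mice carried the *Arc*::dVenus transgene, in which the promoter of the activity-regulated gene *Arc* drives a destabilized fluorescent protein, and were adult males on a C57BL/6J background. Of the 19 mice, 12 were fear conditioned 24 h before tissue was taken (FC), with tones that ended together with foot shocks. Another 4 went through the same protocol without shocks, also 24 h before (NS), and 3 stayed in the home cage (HC). From each mouse the contents of 10 fluorescent granule cells (dVenus+) and of 10 nearby cells without fluorescence (dVenus-) were aspirated through a patch pipette, which gave 38 libraries, 2 from each mouse. A dVenus+ cell is defined by reporter protein at the time of sampling, so the label records recent drive of the *Arc* promoter and not a lasting cell type. The FC mice were processed in 3 experiments (mice 1 and 3, mice 4 to 7, and mice 9 to 14) and the NS and HC mice together in another. Training history and experiment therefore cannot be told apart between FC and other mice, whether in levels or in dVenus+ against dVenus- differences. Each such difference itself lies within 1 mouse.

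The respiratory chain passes electrons from NADH, through complex I, or from succinate, through complex II, by way of complex III to oxygen at complex IV. Complexes I, III and IV pump protons across the inner mitochondrial membrane and the ATP synthase uses their return to make ATP, the main energy supply of neurons at rest and during firing. Most subunits are encoded in the nucleus, made in the cytosol and imported, while a core of complexes I, III, IV and V is encoded in mitochondrial DNA. The mitochondrially encoded genes were not analysed here.

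Libraries held between 1352288 and 18394761 reads on genes, and 16.4% to 59.7% of uniquely aligned reads lay outside genes. *Arc* itself exceeded 1000 counts in the dVenus- libraries of FC mice 6, 7 and 14 (1276, 1095 and 2549 counts), against their label, and the summed levels, the counts over members and the main fold changes of FC mice are also given without these mice. Of the 92 members, 50 had at least 10 counts in every library. Another 3 (*Ndufs5*, *Cox8b* and *Cox8c*) had no count in any library, and *Ndufa4l2* had 1 count in all. For *Ndufs5*, the only accessory subunit of complex I without counts, absence of the RNA and loss of its reads cannot be told apart. A count of 0 allows up to 3 counts, or 0.163 to 2.22 CPM at the depths of these libraries. This limit covers counting error only, since the reads carry no molecular identifiers. Reads were assigned only where they aligned uniquely, and in 24 members over 10% of the 50-base stretches of the transcript also occur in transcripts of other genes. *Atp5l*, with 84.8%, was the only member above 50%, and its values are uncertain. The exons of 25 members overlap another gene.

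Promoters of 6 members are printed. The first 5 belong to members among the 7 whose unadjusted p-value in FC mice lay under 0.05, given further on, and the last to *Uqcrc1*, the member of complex III with the smallest p-value in NS and in HC mice. Each sequence is the 250 bases before the RefSeq start on GRCm38.p6, from 5′ to 3′ on the strand of the gene, and capitals mark words of factors known to act on respiratory genes. The searched words were GCGCATGC (NRF1), CCGGAAGT (ETS factors such as GABPA), AAGATGGC (YY1), GGGCGG (SP1) and TGACGTCA (CRE), on both strands, of which the NRF1 word overlaps its own reverse complement in GCGCATGCGC.
Uqcr11: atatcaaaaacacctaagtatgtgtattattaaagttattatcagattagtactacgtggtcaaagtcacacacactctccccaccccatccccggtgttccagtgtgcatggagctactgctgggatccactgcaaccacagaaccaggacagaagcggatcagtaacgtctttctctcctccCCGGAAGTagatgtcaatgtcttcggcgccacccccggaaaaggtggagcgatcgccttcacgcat
Ndufv3: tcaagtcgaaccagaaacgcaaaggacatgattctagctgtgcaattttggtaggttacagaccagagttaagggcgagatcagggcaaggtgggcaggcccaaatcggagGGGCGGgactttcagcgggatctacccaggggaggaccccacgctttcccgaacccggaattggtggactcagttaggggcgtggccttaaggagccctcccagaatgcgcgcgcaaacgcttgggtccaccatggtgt
Atp5g2: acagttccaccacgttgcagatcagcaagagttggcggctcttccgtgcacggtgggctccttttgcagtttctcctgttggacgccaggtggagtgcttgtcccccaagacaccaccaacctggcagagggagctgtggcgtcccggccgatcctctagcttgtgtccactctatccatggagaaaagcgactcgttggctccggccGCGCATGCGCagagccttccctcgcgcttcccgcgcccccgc
Uqcrh: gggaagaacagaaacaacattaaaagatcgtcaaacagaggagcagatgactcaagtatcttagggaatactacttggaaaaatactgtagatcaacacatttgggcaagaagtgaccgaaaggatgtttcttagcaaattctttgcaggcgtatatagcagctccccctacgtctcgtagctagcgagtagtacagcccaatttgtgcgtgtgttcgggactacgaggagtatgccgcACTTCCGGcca
Ndufb4: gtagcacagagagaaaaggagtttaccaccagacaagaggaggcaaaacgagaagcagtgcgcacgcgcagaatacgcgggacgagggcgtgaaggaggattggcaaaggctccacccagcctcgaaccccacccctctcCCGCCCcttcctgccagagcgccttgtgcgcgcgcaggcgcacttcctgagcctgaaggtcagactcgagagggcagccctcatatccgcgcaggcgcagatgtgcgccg
Uqcrc1: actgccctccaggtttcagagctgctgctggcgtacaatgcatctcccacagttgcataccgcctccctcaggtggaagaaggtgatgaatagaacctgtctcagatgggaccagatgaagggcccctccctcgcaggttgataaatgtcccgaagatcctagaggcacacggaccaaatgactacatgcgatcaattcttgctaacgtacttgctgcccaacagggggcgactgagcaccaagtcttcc

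The window of *Uqcr11* (chr10:80406822-80407071, minus strand) holds 1 ETS word 66 bases before the start, and that of *Uqcrh* (chr4:116075071-116075320, minus strand) holds 1 on the opposite strand, 11 bases before the start. *Atp5g2* (chr15:102671048-102671297, minus strand) has the NRF1 word 42 bases before its start. An SP1 word lies 139 bases before the start of *Ndufv3* (chr17:31519865-31520114, plus strand) and, on the opposite strand, 110 bases before that of *Ndufb4* (chr16:37654369-37654618, minus strand). None of the 5 words is in the window of *Uqcrc1* (chr9:108936398-108936647, plus strand). A window was given for 76 members and 27025 genes in all, and members for which none was used include *Atp5a1*, *Cox4i1*, *Cox4i2*, *Cox6a2*, *Cox6c*, *Cox8c*, *Ndufa2*, *Ndufa4l2*, *Ndufaf6*, *Ndufb9*, *Ndufs1*, *Sdhc*, *Uqcrb*, *Uqcrc2* and *Uqcrq*. The NRF1 word was in 9 of the 76 members' windows (11.8%) and in 2.56% of all windows, and the CRE word in 4 (5.26%) and in 1.77%. For the ETS word the shares were 3.95% and 3.23%, for YY1 2.63% and 1.83%, and for SP1 39.5% and 35.4%. A match describes only the letters in the window.

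Respiratory chain genes were abundant in both kinds of cell. Levels are given as CPM, the counts of a gene scaled to a common library total, after TMM scaling (normalized CPM), and between genes only after division by exon length in kilobases. The member of highest level within each part of the chain is given here, as the mean per kilobase over the FC libraries. It was 512 for *Cox4i1*, a nuclear regulatory subunit of cytochrome c oxidase, 449 for *Atp5b*, the catalytic beta subunit of the ATP synthase, and 361 for *Atp5h*, a subunit of its stalk. In complex III it was 312 normalized CPM per kilobase, for its smallest subunit, *Uqcr11*. In the other parts of the chain the highest levels were lower, with 225 for *Ndufa2* among accessory and 140 for *Ndufs7* among core subunits of complex I, and 133 for *Sdhb*, the iron-sulfur subunit of complex II. The highest assembly factor, *Ndufaf3*, reached only 24.4. The plot of levels per kilobase shows this order in FC mice, with the assembly factors below most structural subunits.

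**Figure D1:**
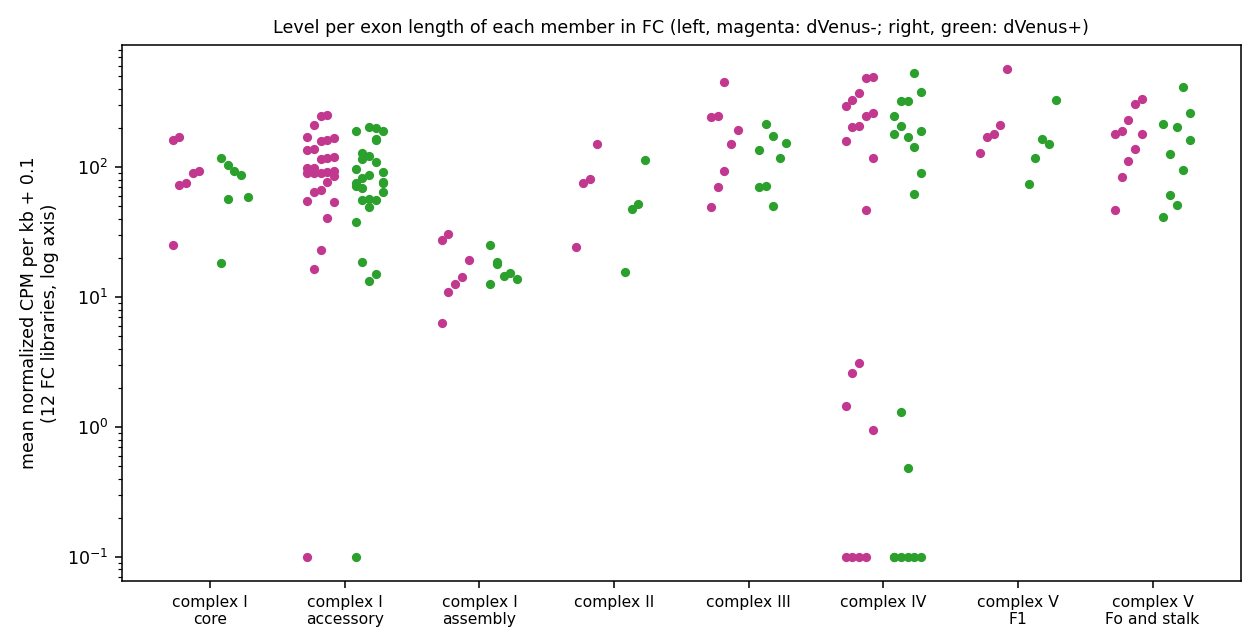
Each point is 1 member, placed by the mean of the 12 dVenus- (magenta, left) or 12 dVenus+ libraries (green, right) of FC mice, as normalized CPM per kilobase of exon plus 0.1 on a log axis, by part of the chain, without *Atp5s* and *Atp5sl*. Assembly factors reach at most 30.3, *Atp5b* in dVenus- libraries is highest with 570.2, and the rare isoforms of complex IV and members without counts lie at the bottom.

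Several subunits have a second gene with a narrower known distribution, and these were near 0. *Cox4i2*, an isoform known from lung, was counted in 1 library, dVenus- of HC mouse 17, with 194 counts. The isoforms known from muscle were present mainly in 2 dVenus- libraries. *Cox6a2* had 232 counts in FC mouse 10 and 222 in FC mouse 7, and *Cox7a1* had 79 and 78 in the same libraries. *Cox7a1* was otherwise at 1 count in 1 library, and *Cox6a2* at 33 counts in the dVenus+ library of mouse 10 and at most 6 in 5 others. The dVenus- library of FC mouse 10 also had the highest sum of 6 interneuron markers of any FC dVenus- library. This sum was 0.427% of its counts, against a median of 0.0173%, whereas in the dVenus- library of mouse 7 it was 0.0238%. The part of interneurons in the isoform counts was not tested. *Cox6b2* was found in 3 libraries and *Cox7b2* in 7, both with at most 150 counts. By contrast *Cox4i1* and *Cox6b1* had at least 10 counts in every library. The 3 genes of the proton-carrying c subunit, *Atp5g1*, *Atp5g2* and *Atp5g3*, which encode the same mature protein, were all present, with 204, 69.9 and 149 normalized CPM as medians of FC dVenus- libraries in this order.

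As a share of all counts on genes, the 92 members were lower in dVenus+ than in dVenus- cells of most mice. In FC mice the share was 0.345% to 1.53% in dVenus+ (median 0.826%) and 0.507% to 2.21% in dVenus- libraries (median 1.53%), and it was lower in dVenus+ cells of 9 of 12 mice. In NS mice it ran from 0.342% to 1.36% (median 0.882%) in dVenus+ and from 1.05% to 3.45% (median 2.37%) in dVenus- libraries, lower in 4 of 4 mice. In HC mice the dVenus+ shares were 0.404%, 0.420% and 1.81% and the dVenus- shares of the same mice 1.97%, 1.25% and 2.34%, lower in 3 of 3 mice. The ranges of the 2 kinds of cell overlapped in each group. The median log2 ratio within mice was -0.82 in FC (SD 1.05, n = 12), -1.49 in NS (SD 0.50, n = 4) and -1.57 in HC mice (SD 0.97, n = 3). Because each library pools RNA from 10 cells, fewer cells of a type and less of these RNAs per cell cannot be told apart.

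**Figure D2:**
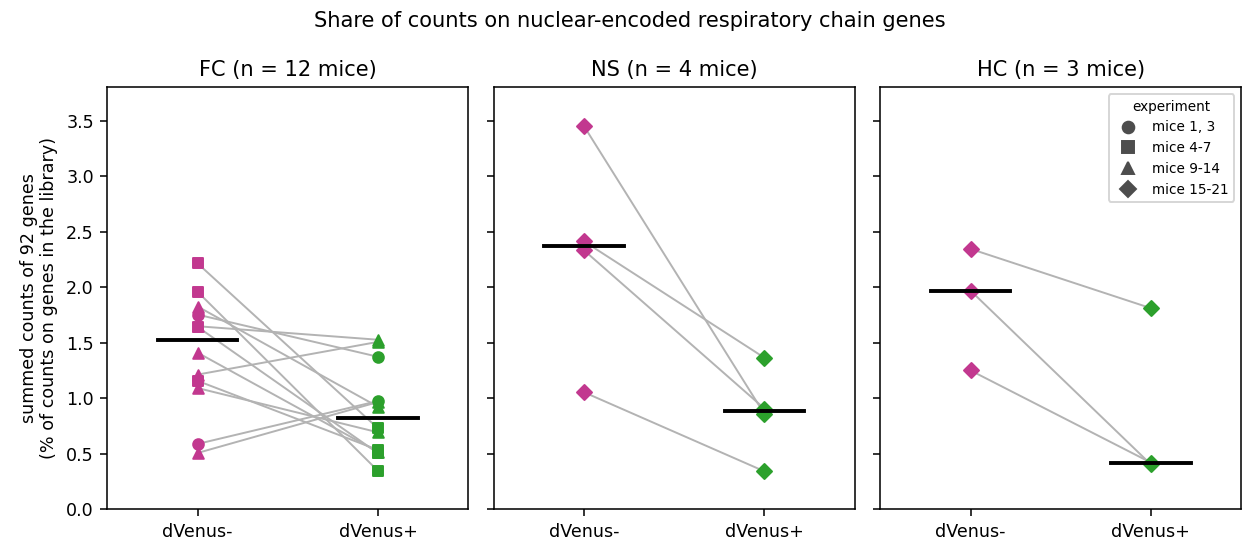
Counts summed over the 92 genes as a percentage of all counts on genes (linear axis from 0), for the dVenus- and dVenus+ library of each mouse, joined by a line, in FC, NS and HC mice. Bars are medians and shapes mark the experiments. The line falls in 9 of 12, 4 of 4 and 3 of 3 mice.

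The size of this difference, and in some mice its direction, depended on the scaling. A share is relative to all counts, whereas TMM is relative to genes of middling ratio between libraries, and the TMM factors differed between the 2 libraries of a mouse. On the TMM scale the summed level of the members was lower in dVenus+ cells of 7 of 12 FC mice (median log2 ratio -0.20), 3 of 4 NS mice (-1.28) and 2 of 3 HC mice (-0.90). FC mice 1 and 14, NS mouse 21 and HC mouse 17 changed direction between the scales, and in mouse 14 the log2 ratio was -1.45 by share and 0.49 after TMM. The 3 FC experiments also differed. After TMM the sum was lower in 0 of 2 mice of the first experiment, in 4 of 4 mice of the second and in 3 of 6 mice of the third. Of the 83 members tested in FC, 74 were lower in dVenus+ cells of mouse 10 and 69 in mouse 4, but only 9 in mouse 13. Without mice 6, 7 and 14 the share was lower in 6 of 9 FC mice (median log2 ratio -0.35) and the TMM sum in 5 of 9 (-0.08). The plot of ratios by mouse gives each part of the chain, where the SD of the TMM ratio over FC mice ran from 0.62 for the core of complex I to 1.38 for complex II.

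**Figure D3:**
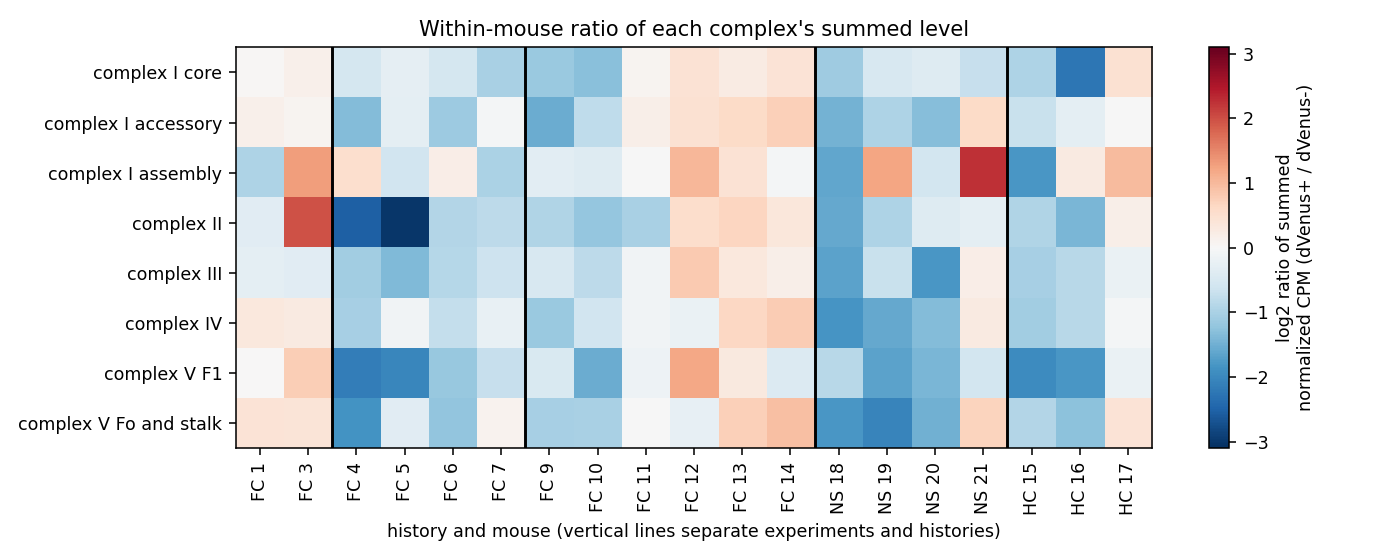
Color gives the log2 ratio, dVenus+ over dVenus-, of normalized CPM summed over the members of each part of the chain (rows) in each mouse (columns), blue where dVenus+ is lower. Vertical lines separate experiments and training groups. Mice 4 to 7 are mostly blue and mice 12 to 14 mostly red.

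Each member was then tested with edgeR's quasi-likelihood test on the counts, with the mouse as a block and 1 fit for each training group. A call needed a p-value under 0.05 after Benjamini-Hochberg adjustment over all genes tested and a log2 fold change, dVenus+ over dVenus-, above 1 in size. Each mouse gave 1 library of each kind, and the p-values measure the spread of the difference between mice. In FC mice 83 members passed the filter on low counts, and 1 was called, *Uqcr11*, lower in dVenus+ cells. Among all 9709 genes tested 4.35% were called. At an unadjusted p-value under 0.05, 7 members were lower and 0 higher, where 11.3% of all genes were lower and 6.49% higher. The 7 are 8.43% of the members tested, a share below that of all genes. DESeq2 called 5 members (6.02%) and 16.8% of all genes. The fold change was negative for 66 of 83 members (79.5%) and 54.1% of all genes, with a median of -0.42 for the members and -0.11 for all genes. Without mice 6, 7 and 14 it was negative for 66 of 82 members, with a median of -0.41.

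In NS mice 0 of 80 members were called, as against 0.0489% of 8187 genes. At an unadjusted p-value under 0.05 6 were lower and 0 higher (4.46% and 4.21% of all genes), and DESeq2 called 1 (1.25%, against 8.13% of all genes). Of the 80 fold changes 72 were negative, and the median was -0.96 against 0.08 for all genes, of which 48% were negative. In HC mice 0 of 81 members were called, as were 0 of 7588 genes. There 3 members were lower and 0 higher at an unadjusted p-value under 0.05 (3.22% and 3.8% of all genes), and DESeq2 called 2 (2.47%, against 8.24% of all genes), *Uqcrc1* lower and *Ndufaf4* higher. The median was -0.66 against 0.02, with 59 of 81 members and 49.6% of all genes negative. The 3 fits share no library, but within a fit all members were read in the same libraries and are not independent of each other. Of the 79 members tested in all 3 fits, 44 were negative in each (55.7%), against 1362 of 6621 genes (20.6%). Only 1 member, *Ndufaf4*, an assembly factor of complex I, was positive in each (1.27%, against 19.7% of all genes).

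**Figure D4:**
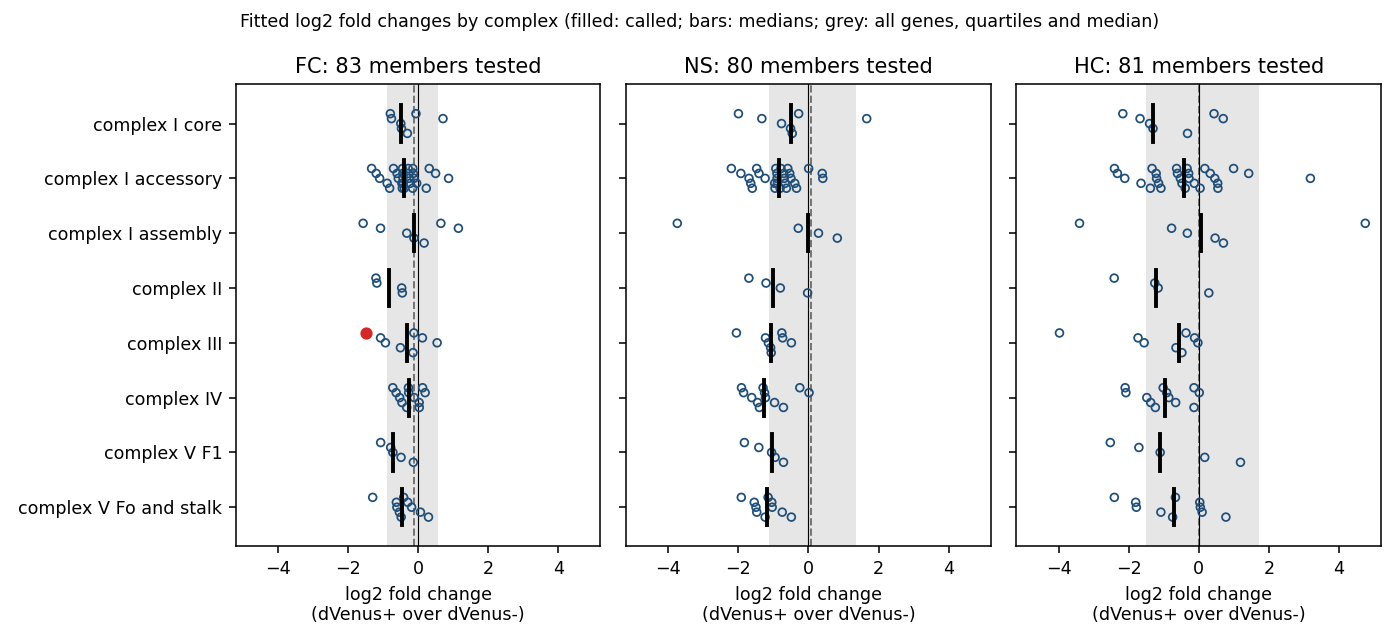
Points are the fitted log2 fold changes, dVenus+ over dVenus-, of the members tested in FC (83), NS (80) and HC mice (81), by part of the chain, with black bars at the medians and *Atp5s* and *Atp5sl* left out. The grey band and dashed line give the quartiles and median of all genes tested. The filled red point is *Uqcr11*, the only call, and most medians lie left of the dashed line.

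Complex III, which takes electrons from ubiquinol to cytochrome c, held the only call. *Uqcr11* (chr10:80402997-80406821) had 15.3 to 274.6 normalized CPM in dVenus+ libraries of FC mice, with a median of 57.4. In dVenus- libraries it had 55.9 to 350.9, with a median of 186. It was lower in dVenus+ cells of 11 of 12 mice, although the ranges overlapped. Its mean was 76.9 ± 67.8 in dVenus+ and 201 ± 99.1 in dVenus- libraries (SD, n = 12). Its log2 fold change was -1.48 (standard error 0.43, edgeR, adjusted p = 0.0433). The call lay close to its threshold. It was lost when FC mouse 1, 3, 4, 5, 6, 9, 10, 12 or 14 was left out (adjusted p from 0.0576 to 0.0860), and it was kept without mouse 7, 11 or 13 (0.0316 to 0.0457, edgeR). Without mice 6, 7 and 14 together the fold change was -1.42 (adjusted p = 0.171). Within the 3 FC experiments it was -1.18, -2.39 and -1.08, with adjusted p-values of 0.614, 0.337 and 0.537 in the small fits of edgeR. In NS mice *Uqcr11* had 172, 116, 146 and 270 normalized CPM in dVenus+ and 503, 150, 418 and 199 in dVenus- libraries of mice 18 to 21, and the fold change of -0.76 did not pass (adjusted p = 0.792).

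Other small subunits of complex III had negative fold changes in FC mice without a call. *Uqcrq*, a small subunit, had a log2 fold change of -1.07 (adjusted p = 0.191) and *Uqcrh*, the hinge protein that helps cytochrome c1 bind cytochrome c, one of -0.93 (adjusted p = 0.220, edgeR). *Uqcrq* ran from 20.9 to 340.8 normalized CPM in dVenus+ (median 55.1), and its dVenus- libraries lay between 75.4 and 336.7 (median 128). The 2 core proteins had fold changes of -0.12 for *Uqcrc1* and 0.54 for *Uqcrc2*, and *Uqcrfs1*, the Rieske iron-sulfur protein at which ubiquinol is oxidized, had 0.12. The complex had a median of -0.33 in FC mice, -1.07 in NS mice and -0.57 in HC mice, and all 8 members were negative in both of the last 2 groups.

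*Uqcrc1* (chr9:108936648-108949641) was the member of complex III with the smallest p-value in NS and HC mice. In NS mice it had 96.6, 34.3, 21.0 and 48.0 normalized CPM in dVenus+ and 491, 110, 106 and 172 in dVenus- libraries, so that the groups did not overlap. In HC mice it had 55.7, 0.666 and 9.63 in dVenus+ and 237, 15.8 and 523 in dVenus- libraries, which overlapped. The log2 fold changes were -2.06 (standard error 0.90, adjusted p = 0.547) and -3.97 (standard error 1.42, adjusted p = 0.677, edgeR). In FC mice the level in dVenus+ libraries ran from 12.5 to 485 with a median of 166, and in dVenus- libraries from 22.6 to 528 with a median of 231, and 7 of 12 mice were lower. The fold change in FC exceeded that in HC mice by 3.67 on the log2 scale in 1 fit of all 38 libraries (adjusted p = 0.405, edgeR) and that in NS mice by 1.90 (adjusted p = 0.60).

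Complex I, the NADH dehydrogenase, is the largest part of the chain. Its core subunits, which carry the flavin and iron-sulfur clusters, had a median fold change of -0.48 in FC mice, -0.51 in NS mice and -1.31 in HC mice. *Ndufs3*, a core subunit of the ubiquinone-binding arm, had the smallest p of them in each group. It ran from 17.4 to 255.2 normalized CPM in dVenus+ libraries of FC mice (median 87.4), and the dVenus- libraries lay between 28.8 and 411 (median 162). Its log2 fold changes were -0.79 in FC mice, -2.0 in NS mice and -1.68 in HC mice (adjusted p = 0.406, 0.572 and 0.762, edgeR). In NS mice it had 98.3, 13.1, 106 and 25.7 in dVenus+ and 328, 100, 196 and 160 in dVenus- libraries, lower in each mouse. Without mice 6, 7 and 14 the value in FC mice was -0.65. Of its 50-base stretches 39.7% also occur in other transcripts.

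Among the 28 accessory subunits tested in FC mice 24 were negative, with a median of -0.41. *Ndufv3* (chr17:31520115-31531326), an accessory subunit next to the NADH-oxidizing flavoprotein, had 8.23 to 51.9 normalized CPM in dVenus+ (median 29.5) and 22.2 to 186 in dVenus- libraries (median 69.0). It was lower in dVenus+ cells of 11 of 12 mice, with a log2 fold change of -1.33 (standard error 0.48, edgeR, adjusted p = 0.115), and -1.36 without mice 6, 7 and 14. *Ndufb4*, a subunit of the membrane arm, had -1.20 in FC (adjusted p = 0.272), -1.93 in NS and -1.65 in HC mice, where its dVenus+ values of 33.7, 60.6 and 50.8 normalized CPM lay below all dVenus- values of 116, 183 and 151. In HC mice *Ndufab1*, the mitochondrial acyl carrier protein, had the smallest p of the accessory subunits (log2 fold change -2.41, adjusted p = 0.717). It had 12.0, 61.3 and 15.3 in dVenus+ and 53.3, 401 and 77.3 in dVenus- libraries. In FC mice its value was 0.32, and 4 of 12 mice were lower.

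The assembly factors, which build complex I but are not part of it, had medians near 0. The median was -0.12 in FC mice, -0.0027 in NS mice and 0.07 in HC mice, and 4 of 7, 2 of 4 and 3 of 6 tested were negative. They were low and uneven between libraries. *Ndufaf5*, which modifies the core subunit *Ndufs7*, had 0 to 44.0 normalized CPM in dVenus+ (median 7.76) and 0.0921 to 105 in dVenus- libraries of FC mice (median 28.4), and its log2 fold change was -1.57 with a standard error of 0.92 (adjusted p = 0.392, edgeR). *Ndufaf3* was at 0 in 3 of 4 dVenus+ libraries of NS mice, and its fold change of -3.74 had a standard error of 2.42 (adjusted p = 0.650). *Ndufaf7*, a methyltransferase, had 5.59, 3.33 and 2.69 in dVenus+ and 71.5, 12.9 and 43.7 in dVenus- libraries of HC mice, which did not overlap (log2 fold change -3.40, adjusted p = 0.720).

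Complex II, succinate dehydrogenase, has all its subunits encoded in the nucleus, and 4 of 4 were negative in FC and NS and 3 of 4 in HC mice. The medians were -0.82, -1.01 and -1.21. The membrane anchors *Sdhc* and *Sdhd* had log2 fold changes of -1.18 and -1.20 in FC mice (adjusted p = 0.311 and 0.402, edgeR). *Sdhc* had 0 to 146 normalized CPM in dVenus+ (median 35.3) and 11.2 to 124 in dVenus- libraries (median 77.1), and *Sdhd* had 0.327 to 144 (median 60.2) and 14.9 to 164 (median 88.1). The catalytic *Sdha* and *Sdhb* were nearer to 0, with -0.47 and -0.45. In NS mice *Sdhb* had the smallest p of the complex (-1.21, adjusted p = 0.715) and in HC mice *Sdhd* (-2.41, adjusted p = 0.739), and neither was lower in every mouse.

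Complex IV, cytochrome c oxidase, had medians of -0.27 in FC mice, -1.27 in NS mice and -0.97 in HC mice. *Cox6c*, a small membrane subunit, had 67.7 to 336 normalized CPM in dVenus+ (median 147) and 108 to 520 in dVenus- libraries of FC mice (median 200), and its log2 fold change was -0.72 with a standard error of 0.35 (adjusted p = 0.275, edgeR). *Cox4i1*, highest per kilobase over both kinds of cell, had in FC mice a median of 328 in dVenus+ and of 340 in dVenus- libraries and a fold change of 0.13. In NS mice it had 376, 192, 431 and 466 in dVenus+ and 1260.3, 632, 501 and 534 in dVenus- libraries, without overlap. *Cox6b1*, a subunit on the side of the intermembrane space, had 162, 80.7, 94.0 and 52.5 in dVenus+ and 546, 157, 486 and 258 in dVenus- libraries of NS mice (log2 fold change -1.85, adjusted p = 0.544). In HC mice it was -2.08 (adjusted p = 0.720) and in FC mice -0.27 (adjusted p = 0.785). The difference of 1.54 between its FC and NS values had an adjusted p of 0.607 (edgeR).

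In the catalytic F1 part of the ATP synthase all 5 members were negative in FC and NS mice and 3 of 5 in HC mice, with medians of -0.72, -1.05 and -1.10. *Atp5a1*, the alpha subunit, had the smallest p of all members in NS mice. It had 555, 97.1, 32.6 and 339 normalized CPM in dVenus+ and 797, 530, 469 and 565 in dVenus- libraries, lower in each mouse although 1 dVenus+ value lay within the dVenus- range (log2 fold change -1.83, standard error 0.74, adjusted p = 0.510, edgeR). In HC mice the values were 91.0, 47.3 and 630 in dVenus+ and 616, 963 and 856 in dVenus- libraries (-2.52, adjusted p = 0.677). In FC mice it was lower in 6 of 12 mice, with a fold change of -0.14. The beta subunit *Atp5b* had 196 to 1392 in dVenus+ (median 615) and 180 to 2639 in dVenus- libraries of FC mice (median 967), with a fold change of -0.72 (adjusted p = 0.308). It did not overlap in HC mice, with 121, 313 and 763 in dVenus+ and 859, 1021 and 1159.9 in dVenus- libraries (-1.71, adjusted p = 0.698). *Atp5c1*, the rotating gamma subunit, had the smallest p of F1 in FC mice, with -1.07 (adjusted p = 0.308), and -0.38 without mice 6, 7 and 14.

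The membrane part and stalk of the ATP synthase, through which protons return, had medians of -0.45, -1.19 and -0.71. *Atp5g2* (chr15:102662868-102671047) had 3.48 to 96.4 normalized CPM in dVenus+ (median 31.8) and 38.9 to 192 in dVenus- libraries of FC mice (median 69.9), lower in 10 of 12 mice (log2 fold change -1.30, standard error 0.54, adjusted p = 0.192, edgeR). Without mice 6, 7 and 14 its fold change was -0.89. The fold changes of *Atp5g1* and *Atp5g3* in FC mice were -0.19 and -0.41, and 38.3% of the 50-base stretches of *Atp5g2* occur in other transcripts. *Atp5f1*, the b subunit of the outer stalk, had 70.8, 15.7, 122 and 134 in dVenus+ and 142, 428, 437 and 228 in dVenus- libraries of NS mice, without overlap (-1.92, adjusted p = 0.572). *Atp5j*, coupling factor 6, had 26.7, 95.2 and 195 in dVenus+ and 211, 318 and 315 in dVenus- libraries of HC mice, also without overlap (-1.78, adjusted p = 0.723). Of the remaining pair, *Atp5sl* had -1.96 in FC mice (adjusted p = 0.283) and *Atp5s*, known as factor B, 0.73 (adjusted p = 0.773).

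**Figure D5:**
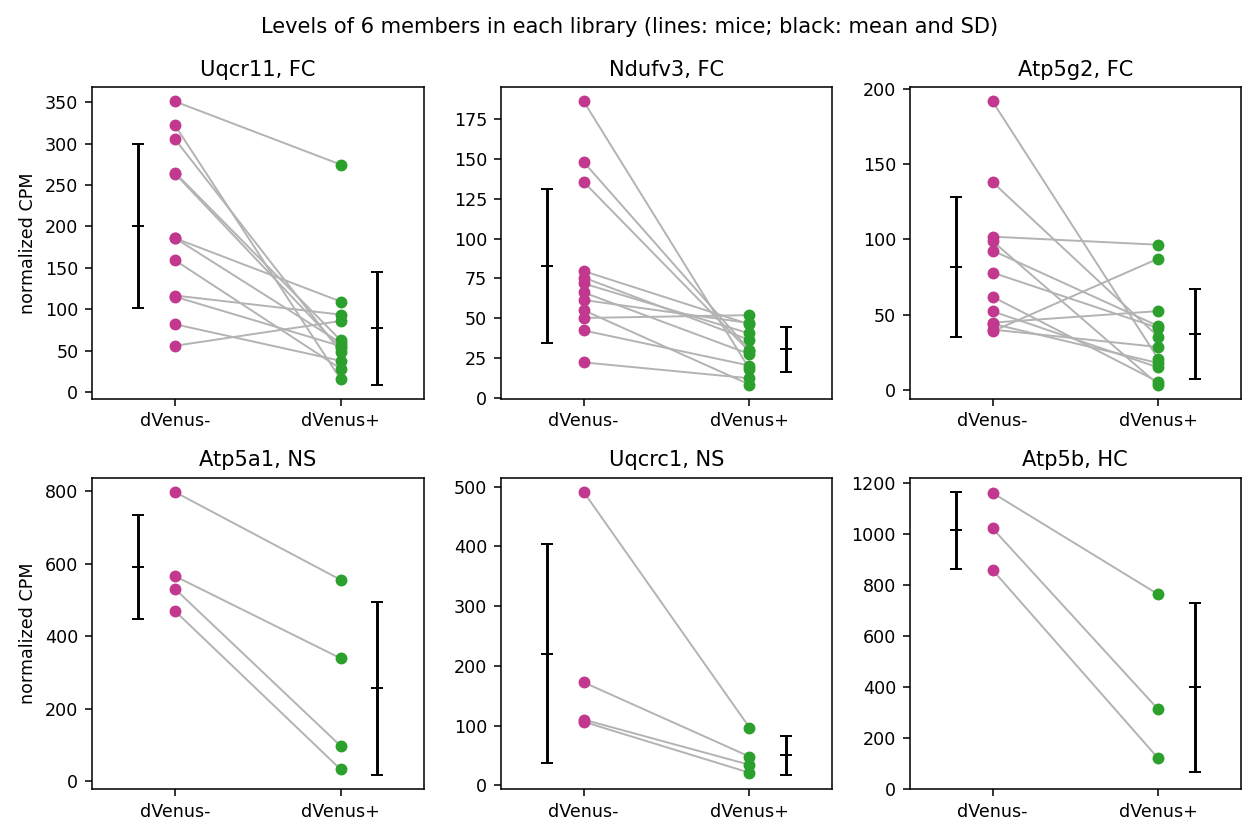
Normalized CPM of 6 members in the dVenus- and dVenus+ library of each mouse, joined by a line, with mean and SD beside the points (12 FC, 4 NS or 3 HC mice). *Uqcr11* and *Ndufv3* are lower in dVenus+ cells of 11 of 12 mice and *Atp5g2* of 10 of 12, and *Atp5b* in HC and *Uqcrc1* in NS mice do not overlap.

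Directions shared by every mouse of a group were counted beside those of all genes. A total of 18 members were lower in dVenus+ cells of each of the 4 NS mice, 22.5% of those tested, where 7.66% of all genes were. In each of the 3 HC mice 20 were lower (24.7% against 13.6%) and 5 higher (6.17% against 16.4%), *Atp5e*, *Ndufa11*, *Ndufa13*, *Ndufa9* and *Ndufs6*. Members lower without overlap of the groups numbered 6 in NS mice (7.5% against 2.86% of all genes), *Atp5c1*, *Atp5f1*, *Cox4i1*, *Cox7a2*, *Ndufb7* and *Uqcrc1*. In HC mice there were 5 (6.17% against 6.73%), *Atp5b*, *Atp5j*, *Cox5a*, *Ndufaf7* and *Ndufb4*. No member was lower in each of the 12 FC mice, as against 1.08% of all genes, and 0 were lower there without overlap, as against 0.0412%. The differences between the dVenus effects of FC and other mice were tested as interactions, in which training history and experiment cannot be told apart. For FC against NS or against HC mice 0 members were called, as were 0 of 14075 genes (edgeR). Unadjusted p-values fell under 0.05 for 5 and 8 members (8.18% and 9.26% of all genes), and DESeq2 called 2 and 7 (2.33% and 8.14%, against 8.47% and 11.2% of all genes).

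Other genes of energy metabolism were counted from lists. Over all genes tested in FC mice 11.3% were lower and 6.49% higher at an unadjusted p-value under 0.05 (edgeR), with a median fold change of -0.11. Of the listed genes 1 was called in FC mice, *Mrps33*, a protein of the small mitochondrial ribosomal subunit. Its log2 fold change was -1.88 (adjusted p = 0.0329, edgeR, lower in 11 of 12 mice). *Mrps33* was 1 of 76 genes of the mitochondrial ribosome, of which 3 were lower and 1 higher at an unadjusted p-value under 0.05, with a median of -0.07. Of 16 genes of glycolysis, which makes pyruvate for the mitochondria, 5 were lower and 0 higher at that threshold (median -0.26), among them *Tpi1*, triosephosphate isomerase, with -1.05 (adjusted p = 0.0529). The citric acid cycle with pyruvate dehydrogenase had 1 of 16 lower (median -0.24) and mitochondrial carriers and porins 3 of 15 lower and 1 higher (median -0.48). Their smallest p-values were those of *Mdh2*, mitochondrial malate dehydrogenase (-0.79, adjusted p = 0.243), and *Slc25a22*, a glutamate carrier (-1.30, adjusted p = 0.205). Among assembly factors with other symbols 3 of 26 were lower (median -0.25), with *Cox14*, of complex IV assembly, at -1.20 (adjusted p = 0.170). Of 6 further chain genes, among them cytochrome c, and of 11 regulators of mitochondrial biogenesis 0 passed an unadjusted p-value of 0.05, and *Atpif1*, the inhibitor of the ATP synthase, had -0.86 (adjusted p = 0.353) and the nuclear receptor *Esrra* -1.12 (adjusted p = 0.527). In NS mice the medians of these lists ran from -0.51 to -1.50, and in HC mice all were negative but that of the regulators, at 2.97.

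Markers of cell types and of RNA kept in the nucleus also differed between dVenus+ and dVenus- cells, in directions that varied between the lists. The sum of 6 nuclear-retained RNAs, most of it *Malat1*, was higher in dVenus+ cells of 11 of 12 FC, 3 of 4 NS and 2 of 3 HC mice, with medians of 3.79% against 2.25%, 2.98% against 0.968%, and 1.97% against 0.785% of counts. Within this list *Malat1* and *Snhg11* were called higher in FC and in NS mice (edgeR). *Miat* went the other way in FC mice and was called lower (log2 fold change -2.29, adjusted p = 0.0142, edgeR, lower in 11 of 12 mice). The summed markers of granule cells were lower in dVenus+ cells of 12 of 12, 4 of 4 and 3 of 3 mice (medians 0.0509% and 0.144% in FC). *Prox1* and *Calb1* had counts in each library, but some dVenus+ values were near 0. Their lowest values in FC mice were 0.695 and 0.984 normalized CPM in dVenus+ and 35.9 and 219 in dVenus- libraries. In FC mice 3 of the 8 granule cell markers tested were called lower (*Calb1*, *C1ql2* and *Stxbp6*) and 1 higher (*Pdzd2*). The 12 microglial markers together were higher in 10 of 12, 3 of 4 and 2 of 3 mice, ranging from 0.00462% to 0.244% of counts in dVenus+ and from 0.000259% to 0.109% in dVenus- libraries of FC mice. Of the 10 tested in FC mice 4 were called higher (*Aif1*, *Csf1r*, *C1qc* and *C1qa*) and 0 lower, where 4.35% of all genes were called. At an unadjusted p-value under 0.05 (edgeR) 8 were higher and 0 lower, against 6.49% and 11.3% of all genes. No microglial marker was called in NS or HC mice. Astrocyte markers were lower in 11 of 12 FC and 2 of 4 NS mice but higher in 3 of 3 HC mice. Markers of CA pyramidal cells were lower in 11 of 12 FC, 4 of 4 NS and 2 of 3 HC mice, oligodendrocyte markers in 8, 2 and 2, and interneuron markers in 7, 3 and 1. Of the 4 interneuron markers tested in FC mice *Gad1* was called lower and *Npy* higher (edgeR). Without mice 6, 7 and 14 the nuclear-retained RNAs were higher in 9 of 9 FC mice, microglial markers in 8, and granule cell markers lower in 9 and astrocyte markers in 8. Endothelial markers stayed at or under 0.00306% in each library, and *Pecam1* was at 0 in 36 of 38. The part of these RNAs in the lower shares of the respiratory chain was not tested. With the percentage of reads outside genes as a covariate the median of the members was -0.49 in FC mice, -0.30 in NS mice and -0.10 in HC mice, against -0.09, -0.27 and 0.14 for all genes.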

How the data were processed

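RNA from 10 pooled granule cells per library was amplified with Smart-seq2. Per the submitters' processing notes and the study's methods, the authors aligned the reads with TopHat2 2.0.13 to mm10, kept unique alignments and used HTSeq 0.6.0 to count them on NCBI transcripts. The deposited values are raw counts per gene, without normalization, for 23420 genes. Entries that name no gene were left out of totals and tests, and reads outside genes made up 16.4% to 59.7% of unique reads. The members and lists were chosen with earlier results of these data known.

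Libraries were grouped by title, since for 10 libraries of NS and HC mice the description disagrees with the title. Both libraries of a mouse come from 1 animal and were treated as a pair. Their deviations from the group means had a median correlation of 0.0382 in FC mice, -0.0167 in NS mice and 0.0283 in HC mice. Counts were tested with edgeR 4.0.16 (TMM, estimateDisp, glmQLFit, glmQLFTest, two-sided) in R 4.3.3, over genes that reached 10 counts in 12 (FC), 4 (NS) or 3 (HC) libraries of the group. P-values were adjusted after Benjamini-Hochberg over all genes tested. Interactions were tested in 1 fit of 38 libraries over the 14075 genes that reached 10 counts in 3 libraries or more. The common biological coefficient of variation was 1.20 in FC mice and 1.42 in both NS and HC mice. The scripts were checked on simulated counts. DESeq2 1.42.0, other scalings, filters, covariates and subsets were alternatives. Library totals as the only scaling were added after the data were seen.

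Members named are those called, the member of smallest p-value of each part of the chain in each group, the member of highest level per exon length in FC, the isoform sets, and 1 gene of each list of other genes, called or of smallest p-value. Members given beyond these, such as *Uqcrq*, *Uqcrh* and *Cox7a2*, were chosen after their values were seen. Gene positions, exon lengths and promoters are those of RefSeq on GRCm38.p6, where all 92 symbols matched and 76 had a promoter.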

Additional observations from a re-analysis of the deposited data

Results flagged for a closer look

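*Ndufaf3*, an assembly factor of complex I, had 0 normalized CPM in the dVenus+ libraries of NS mice 18, 19 and 20 and 78.0 in that of mouse 21. The gap to the other libraries was the whole range (a ratio of 1), over Dixon's critical value for 4 libraries. With 3 libraries at 0 this ratio is 1 for any value of the fourth, so it does not measure how far mouse 21 lies out. Of 34 groups of values examined 1 was so placed, where chance gives about 1 in 20.

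*Ndufa13*, an accessory subunit of complex I, was lower in dVenus+ cells of each of the 4 NS mice (log2 fold change -0.93) and higher in those of each of the 3 HC mice (0.54). The values differ by 1.47, and this difference was not tested. In NS mice it had 123, 38.3, 132 and 145 normalized CPM in dVenus+ and 334, 69.7, 334 and 150.4 in dVenus- libraries. In HC mice it had 125, 178 and 269.8 against 114, 142 and 121.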

How the results depend on the processing

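The single call in FC mice, *Uqcr11*, was lost under most alternatives. The number of members called in FC mice was 0 in 1 fit of all 38 libraries, with DESeq2 size factors, without a count filter, with the older quasi-likelihood method, with genes detected as a covariate, in each of the 3 experiments alone, without mice 6, 7 and 14, and with library totals as the scaling. It was 0 to 1 when 1 mouse was left out, while the fold change of *Uqcr11* stayed between -1.67 and -1.31. The call was kept with the stricter count filter (adjusted p = 0.0364, edgeR) and with reads outside genes as a covariate (0.0458). The DESeq2 Wald test called 5 of 83 members (*Atp5g2*, *Atp5sl*, *Ndufaf5*, *Ndufv3* and *Uqcr11*; 6.02%) and 16.8% of all genes. Without the shallowly sequenced mice 3, 9 and 12 together 1 was called, *Atp5b* in place of *Uqcr11*. With no replicate block, that is without the pairing by mouse, 2 were called in FC mice (*Ndufv3* and *Uqcr11*) and 0 in NS and HC mice. The cause of these changes was not tested.

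The median fold change of the members in FC mice was -0.51 to -0.27 when 1 mouse was left out and reversed to 0.13 in mice 1 and 3 alone, where *Ndufs3* was 0.17. In NS mice DESeq2 called 1 (*Ndufaf3*), and leaving out a mouse gave 0 calls and medians of -1.29 to -0.77. In HC mice DESeq2 called 2, and leaving out a mouse gave 0 calls and medians of -1.11 to -0.35. With genes detected as a covariate, which leaves 1 residual degree of freedom in HC mice, their median was -8.88, *Ndufaf7* 10.6 and *Uqcrc1* 12.8. For the interactions DESeq2 called 2 members (FC against NS) and 7 (FC against HC).

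With library totals the median of all genes moved to -0.45 in FC mice, -0.46 in NS mice and -0.78 in HC mice and that of the members to -0.82, -1.44 and -1.43. Of the genes called in FC mice 352 of 407 were then lower, against 276 of 422 after TMM. Over all genes the calls in FC mice ranged from 137 (older quasi-likelihood method) to 1635 of 9709 (DESeq2) outside the single experiments. Of 430 values of 24 named results under alternatives, 401 kept direction and side of the threshold. Only *Uqcr11* was called among these results, so the others kept their side by staying uncalled, and the number says little about robustness. All 20 values that lost a call were those of *Uqcr11*, while 6 values gained a call and 3 reversed direction. The shallowest library had 1352288 counts, where a count of 0 allows up to 2.22 CPM.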
